A study of Mus musculus with 9 samples.

Results

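The genes described here encode the cell-surface machinery that receives R-spondin and Wnt signals and the nuclear factors that act on them: Rspo3, Lgr4, Lgr5, Lrp5, Znrf3, Rnf43, Ctnnb1, Axin2, Tcf7l2 and Lef1. They are read through the consensus open-chromatin regions that overlap the mm10 body of any of these 10 genes or the 10 kb on either side of it. That rule takes 65 of the 80827 regions in the table, and no region falls to more than 1 of the genes. Of the 10 genes, 9 hold at least 1 region: 21 at Znrf3, 10 at Rnf43, 10 at Lrp5, 9 at Lgr4, 5 at Tcf7l2, 4 at Ctnnb1 and 2 each at Lef1, Lgr5 and Rspo3. The table used here holds 0 regions at Axin2.

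Chromatin accessibility was measured by ATAC-seq, in which a transposase cuts and tags open DNA, in alphaTC1 cells, a mouse pancreatic alpha cell line derived from a glucagon-producing tumour. Cells were collected on day 5 after transduction with an Smndc1 shRNA, an Atrx shRNA or an empty vector, and each group has 3 libraries that the labels call biological replicates. Smndc1 encodes a splicing factor and Atrx a chromatin remodeller. All groups are the same untreated cell line apart from the vector they received, the labels name 1 hairpin (sh95) for the Smndc1 group and none for the Atrx group, and effects of a hairpin on its target and on other transcripts cannot be told apart.

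R-spondins such as RSPO3 are secreted proteins that bind the receptors LGR4 and LGR5 together with the membrane ubiquitin ligases ZNRF3 and RNF43. Those ligases remove the Wnt receptors Frizzled and LRP5 or LRP6 from the cell surface, so an R-spondin that occupies them leaves more receptor in place. With the receptors engaged, β-catenin, the product of Ctnnb1, escapes the AXIN-containing destruction complex and joins DNA-bound factors of the TCF and LEF family in the nucleus, where Axin2 is a widely used target gene. In the endocrine lineage TCF7L2 is known as a factor of the proglucagon gene, and human TCF7L2 is a diabetes susceptibility gene.

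The sequences just before the annotated starts are shown because starts with many and with few CpG sites were open at some of these genes and closed at others. The RefSeq promoter table (GRCm38.p6) gave start windows for 6 of the 10 genes: Lgr4, Rnf43, Ctnnb1, Axin2, Tcf7l2 and Lef1, all on the plus strand. The 4 sequences printed here are the 250 bases before the first listed start, 5′ to 3′ on the plus strand, with each CpG dinucleotide in capitals. The window of Ctnnb1 lies at chr9:120933150-120933399, that of Lgr4 at chr2:109917397-109917646, that of Tcf7l2 at chr19:55741560-55741809 and that of Lef1 at chr3:131110047-131110296.
Ctnnb1: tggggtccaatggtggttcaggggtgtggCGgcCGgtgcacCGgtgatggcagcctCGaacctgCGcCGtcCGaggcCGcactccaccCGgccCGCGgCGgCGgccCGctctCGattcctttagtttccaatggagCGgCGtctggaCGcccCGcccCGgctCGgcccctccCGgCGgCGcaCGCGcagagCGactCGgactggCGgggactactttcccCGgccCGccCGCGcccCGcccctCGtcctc
Lgr4: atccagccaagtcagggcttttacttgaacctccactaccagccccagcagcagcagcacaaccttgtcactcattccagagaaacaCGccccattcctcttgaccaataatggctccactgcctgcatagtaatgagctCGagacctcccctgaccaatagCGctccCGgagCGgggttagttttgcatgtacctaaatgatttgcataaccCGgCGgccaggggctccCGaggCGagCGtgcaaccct
Tcf7l2: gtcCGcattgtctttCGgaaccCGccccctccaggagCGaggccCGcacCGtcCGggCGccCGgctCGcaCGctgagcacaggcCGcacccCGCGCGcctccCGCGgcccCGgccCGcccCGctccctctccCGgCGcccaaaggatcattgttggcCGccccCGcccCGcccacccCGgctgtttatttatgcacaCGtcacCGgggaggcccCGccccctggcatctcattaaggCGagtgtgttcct
Lef1: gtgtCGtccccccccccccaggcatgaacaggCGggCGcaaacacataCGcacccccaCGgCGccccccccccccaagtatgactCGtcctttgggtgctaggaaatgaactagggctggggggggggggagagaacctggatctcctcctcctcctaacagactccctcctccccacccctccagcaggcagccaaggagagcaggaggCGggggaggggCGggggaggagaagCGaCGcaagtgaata
The Ctnnb1 and Lgr4 windows overlap an open region, and the Tcf7l2 and Lef1 windows do not. The Ctnnb1 window holds 35 CpG and is 74.8% G or C, and the Lgr4 window holds 10 CpG at 55.6%. The Tcf7l2 window, with 30 CpG and 72.8% G or C, resembles that of Ctnnb1 in both counts and overlaps 0 regions. The Lef1 window holds 11 CpG at 66.4%.

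Over all 12 start windows listed for the 6 genes, 4 (33.3%) overlapped a region, against 12259 of the 32619 windows (37.6%) of all genes in the promoter table. Openness followed CpG number across all windows: 7.73% of the windows with 0 to 4 CpG overlapped a region, 29.4% of those with 5 to 9, 63.7% of those with 10 to 14, 77.9% of those with 15 to 19 and 82.3% of those with 20 or more. Both Ctnnb1 windows (35 and 43 CpG), which overlap each other and meet the same region, were among the open ones in the last class. The first Tcf7l2 window and the Axin2 window (24 CpG) stood in the same class without a region. The 4 Lef1 windows, of which the first 2 overlap each other, held 5 to 14 CpG and overlapped 0 regions. Of the 2 Rnf43 windows, 1, with 8 CpG, was open. A short TCF and LEF recognition word, CTTTGAT or CTTTGAA on either strand, occurred in 0 of the 12 windows and in 7.50% of all windows. These letters are simply not in these windows, which says nothing of where the factors bind.

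**Figure D1:**
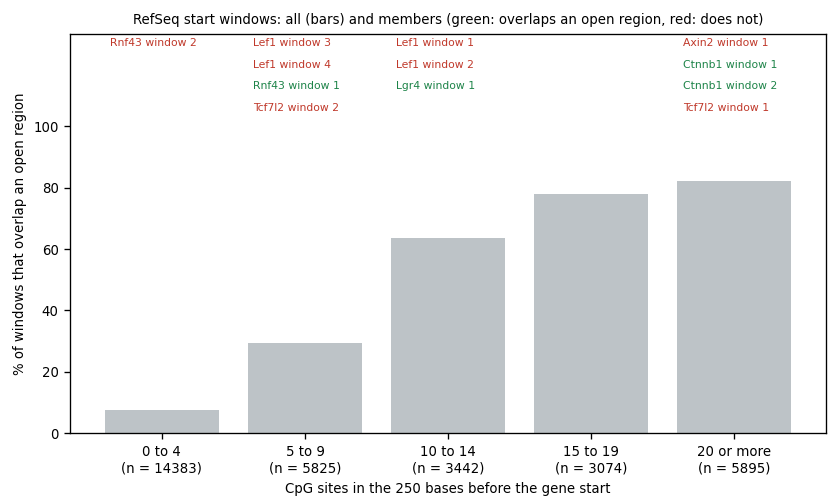
Share of RefSeq start windows (250 bases before the start) that overlap an open region, in percent, by the number of CpG sites in the window; bars are all windows and n is their number. Names mark the 12 windows of the Wnt genes, green where the window overlaps a region and red where it does not; Axin2 and the first Tcf7l2 window stand in the class in which 82.3% of all windows are open.

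Each library holds 5.29 to 8.15 M counts in the 80827 regions, and in replicate 3 of each group the strongest 10% of regions held 38.5 to 38.8% of the counts, against 43.3 to 48.8% in the other 6 libraries. That difference goes with replicate number, so the tests were run with TMM factors and again with offsets that follow the level of each region (trended offsets). All 5 alpha cell genes summed here (Gcg, Irx1, Irx2, Ttr, Pcsk2) had open regions, as did 6 of 7 beta cell genes (0 regions at Ins1), 3 of 4 leukocyte genes (0 at Cd3e), and 3 of 3 each for endothelium and fibroblasts. The summed level of these alpha cell genes was 610.5 to 752.1 CPM with Smndc1 shRNA, 561.3 to 737.6 CPM with Atrx shRNA and 502.8 to 649.8 CPM with empty vector; the leukocyte list summed to 48.6 to 55.5, 51.1 to 66.5 and 44.7 to 55.1 CPM in that order. The beta cell list summed to 176.6 to 252.5, 180.8 to 274.0 and 180.2 to 274.8 CPM, and the endothelial list to 122.7 to 144.0, 107.9 to 127.9 and 105.1 to 138.1 CPM. The fibroblast list summed to 231.0 to 252.6 CPM with Smndc1 shRNA and 242.6 to 253.6 CPM with Atrx shRNA, both wholly below the 255.9 to 280.9 CPM with empty vector; the part of this in the results was not tested. CPM are counts scaled to a common library total after TMM normalisation. An shRNA acts on RNA, so the regions at Smndc1 and Atrx do not check the labels: Smndc1 summed to 46.7 to 61.4, 42.2 to 69.7 and 51.3 to 60.1 CPM, and Atrx to 24.9 to 36.8, 21.1 to 43.4 and 23.2 to 36.9 CPM, in the same order of groups. In bulk libraries, fewer cells with an open site and less opening in each cell cannot be told apart.

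Accessibility per kb of open region differed widely between the genes. In empty vector cells, Lgr5 stood highest with 43.4 ± 13.5 CPM per kb (SD, n = 3), followed by Rnf43 with 26.0 ± 1.67, Lrp5 with 20.8 ± 0.898, Lgr4 with 18.2 ± 3.24, Znrf3 with 17.5 ± 0.928, Ctnnb1 with 13.8 ± 1.89, Rspo3 with 11.0 ± 1.42, Lef1 with 5.93 ± 2.08 and Tcf7l2 with 3.97 ± 2.31 CPM per kb. Among neighbours in this order, Lrp5 and Lgr4, Lgr4 and Znrf3, Ctnnb1 and Rspo3, and Lef1 and Tcf7l2 lay within their SDs. The genes of both DNA-binding factors stood below the ligand and receptor genes in accessibility per kb. The Lgr5 value rests on 1 region, which carried 96.6% of the gene's signal. The strongest regions counted for Rnf43 and Lrp5 lie in the bodies of the neighbouring genes Supt4a and Ppp6r3. They carried 30.9% and 37.2% of the signal summed for Rnf43 and Lrp5, so the places of both in this order rest partly on them.

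**Figure D2:**
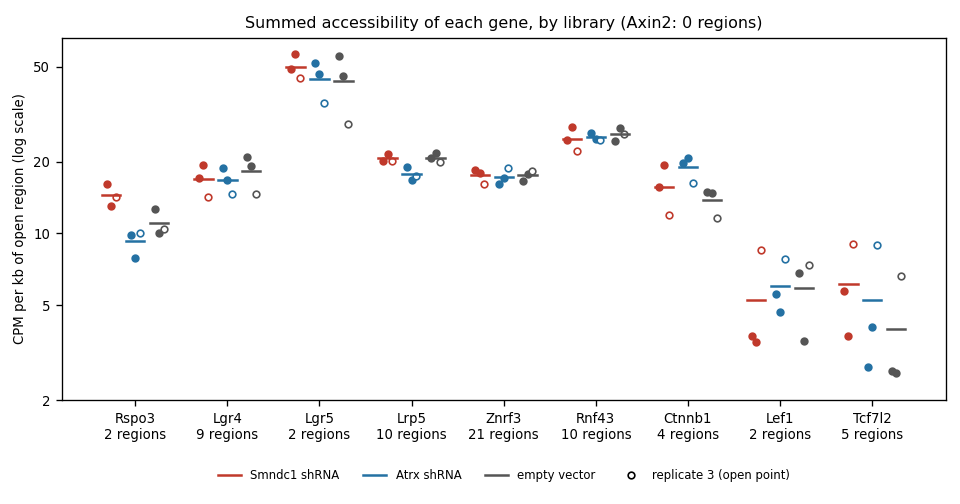
Summed accessibility of each gene in CPM per kb of open region (log axis), 1 point per library, with a line at the mean of each group of 3. Tcf7l2 and Lef1 lie lowest, and at both genes the open points, the 3 replicate 3 libraries, lie above the other 6.

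No gene was called on its summed counts. With counts added over all regions of a gene and edgeR's quasi-likelihood test fitted over 17000 coding genes, 0 of the 9 genes passed an adjusted p of 0.05 for Smndc1 shRNA against empty vector, Atrx shRNA against empty vector or Smndc1 shRNA against Atrx shRNA. The share called among all genes was 0.0%, 0.0% and 0.0118% in these comparisons. At an unadjusted p under 0.05, edgeR counted 1, 2 and 2 of the 9 genes and 1392, 1312 and 944 of all genes, and DESeq2 also called 0 of the 9, with 33, 3 and 5 of all genes.

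Region by region, few of the 65 moved. For Smndc1 shRNA against empty vector, 1 region passed, at Lgr4, and it was lower; 0.156% of all tested regions were called in either direction and 0.136% were called lower. For Atrx shRNA against empty vector 0 of the 65 passed with edgeR, where 0.0% of all regions did. There 5 of the 65 and 4618 of all 80345 tested regions had an unadjusted p under 0.05, and DESeq2 called 0 as well, with 4 of the 65 and 3806 of all at an unadjusted p under 0.05. For Smndc1 shRNA against Atrx shRNA 1 region passed, also at Lgr4 and also lower, beside 0.0759% of all regions in either direction and 0.0535% lower. With trended offsets the counts were 2, 0 and 3 of the 65 in these comparisons, beside 1.13%, 0.269% and 0.592% of all regions. The median log2 fold change over the 65 regions was 0.08 for Smndc1 shRNA against empty vector, -0.04 for Atrx shRNA against empty vector and 0.10 for Smndc1 shRNA against Atrx shRNA, beside medians over all regions of 0.02, 0.01 and 0.00. The comparisons share libraries, so their values are given side by side and no agreement between them is read.

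**Figure D3:**
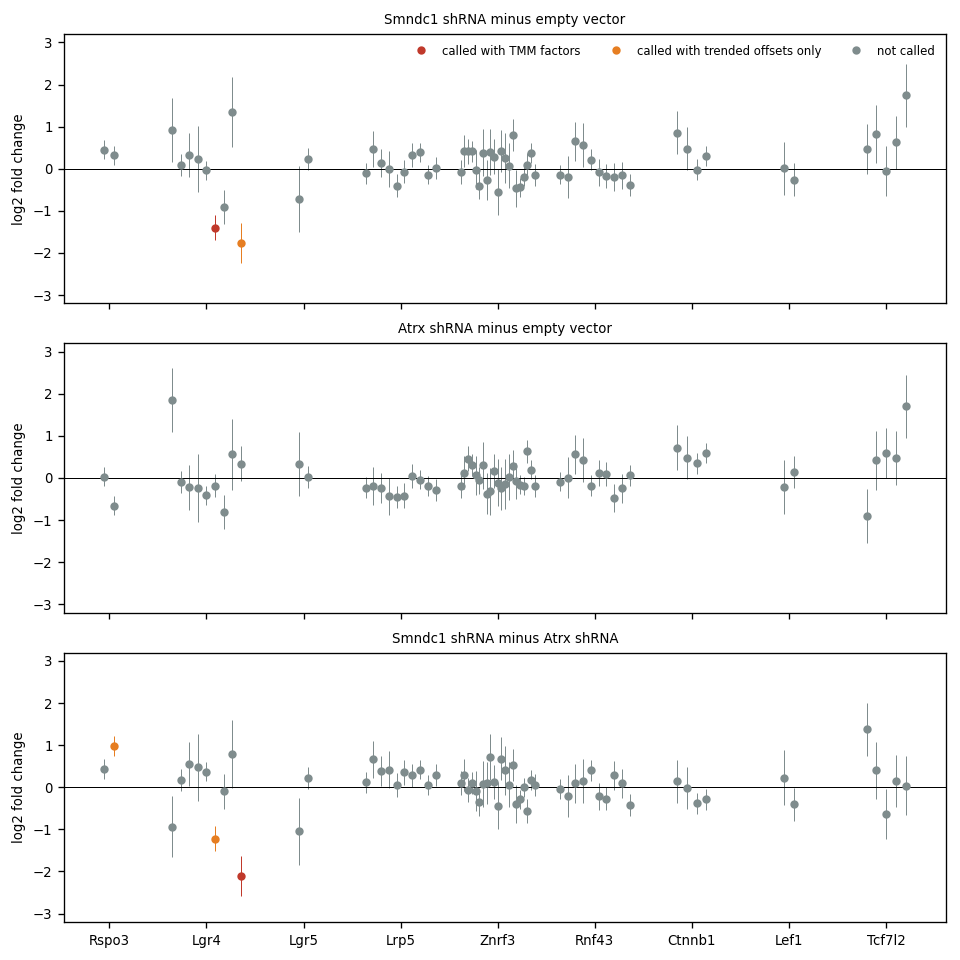
Log2 fold change of each of the 65 regions, ordered by position within its gene, in the 3 comparisons; bars are 1 standard error of the edgeR fit with TMM factors. Red points were called with TMM factors, at Lgr4 only, and orange points with trended offsets only, at Lgr4 and Rspo3; the largest negative value is -2.11 at Lgr4 for Smndc1 shRNA minus Atrx shRNA.

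Rspo3, the ligand of the set, lies at chr10:29453106-29535867, and both of its regions are broad and sit at its higher-coordinate end. The wider, chr10:29532744-29534901, spans 2158 bp, a width reached by 58 (0.0718%) of all regions, and is centred 80.7 kb from the lower-coordinate end. It held 28.4, 25.1 and 26.9 CPM with Smndc1 shRNA, 20.4, 14.9 and 24.3 CPM with Atrx shRNA and 22.7, 18.0 and 18.0 CPM with empty vector. All 3 Smndc1 shRNA libraries lay above the other 6, but the log2 fold change against empty vector, 0.45 ± 0.23 (SE, n = 3 each), did not pass (edgeR adjusted p = 0.62; 0.125 with trended offsets).

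The second Rspo3 region, chr10:29535385-29536491 (+82.8 kb), overlaps the higher-coordinate gene end. It held 24.3, 17.6 and 19.3 CPM with Smndc1 shRNA, 11.7, 10.9 and 8.44 CPM with Atrx shRNA and 18.5, 14.5 and 16.0 CPM with empty vector. The Atrx shRNA libraries were the 3 lowest of the 9 and overlapped neither other group. Smndc1 shRNA exceeded Atrx shRNA by a log2 fold change of 0.98 ± 0.23 (SE), with an edgeR adjusted p of 0.0797; with trended offsets the difference was 1.01 ± 0.22 and passed (adjusted p = 0.00443), and it was then lost only without Smndc1 shRNA replicate 1 (adjusted p = 0.13). Atrx shRNA differed from empty vector by -0.66 ± 0.23 and was not called (adjusted p = 0.677). Summed over both regions, Rspo3 held 52.6, 42.7 and 46.2 CPM with Smndc1 shRNA, 32.1, 25.8 and 32.8 CPM with Atrx shRNA and 41.2, 32.6 and 34.0 CPM with empty vector, and the summed difference of 0.65 ± 0.17 between the knockdowns was not called (edgeR adjusted p = 0.736).

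**Figure D4:**
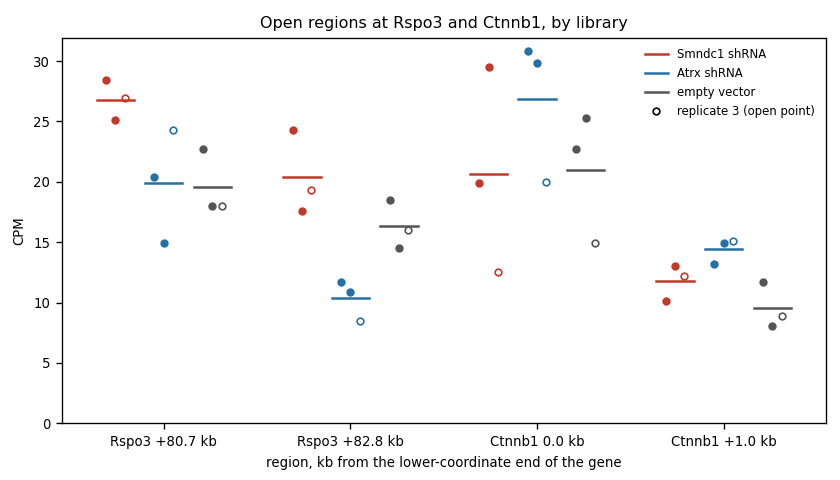
CPM per library at the 2 regions of Rspo3 and at the 2 strongest regions of Ctnnb1, with a line at the mean of each group of 3. At the +82.8 kb region of Rspo3 the Atrx shRNA points, 8.44 to 11.7 CPM, lie below all 6 others, and at the +1.0 kb region of Ctnnb1 they lie above all 6 others.

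Lgr4, a receptor for R-spondins, spans chr2:109917647-110014257 and holds the regions that moved most. Its start lies in a strong region, chr2:109917285-109917876, which overlaps the Lgr4 sequence printed above and carried 55.3% of the gene's signal. That region held 57.2, 65.4 and 43.0 CPM with Smndc1 shRNA, 61.0, 48.5 and 37.2 CPM with Atrx shRNA and 60.4, 54.0 and 41.2 CPM with empty vector. The groups overlapped fully, and the log2 fold changes against empty vector were 0.09 ± 0.26 for Smndc1 shRNA and -0.09 ± 0.26 for Atrx shRNA (edgeR adjusted p = 0.967 and 0.991).

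Inside the gene body, the region at chr2:109960165-109960763 (+42.8 kb) was lower after Smndc1 knockdown. It held 4.26, 4.91 and 3.05 CPM with Smndc1 shRNA, from 29, 29 and 18 counts, against 8.99, 11.5 and 8.28 CPM with Atrx shRNA and 12.7, 11.4 and 8.14 CPM with empty vector. The 3 Smndc1 shRNA libraries were the lowest of the 9. The fall against empty vector was -1.40 ± 0.30 on the log2 scale (edgeR adjusted p = 0.022; 0.00479 with trended offsets; 0.0696, not called, with DESeq2). The call was lost without Smndc1 shRNA replicate 1 (adjusted p = 0.134) or 3 (0.0642) and without empty vector replicate 1 (0.302) or 2 (0.173), while the fold change stayed between -1.56 and -1.23. With trended offsets it was lost without empty vector replicate 1 (0.0923) or 2 (0.0735). Against Atrx shRNA the difference was -1.22 ± 0.30 and passed with trended offsets only (edgeR adjusted p = 0.109 with TMM factors and 0.0249 with trended offsets). That call was kept without Smndc1 shRNA replicate 2, Atrx shRNA replicate 3 or empty vector replicate 3 and lost without any of the other 6 libraries (adjusted p = 0.0505 to 0.236).

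A further Lgr4 region near the other end, chr2:110012034-110012616 (+94.7 kb, 1.9 kb inside the higher-coordinate end and within 10 kb of Ccdc34), showed the largest difference of all 65. It held 1.18, 2.2 and 1.02 CPM with Smndc1 shRNA, from 8, 13 and 6 counts, against 6.91, 6.68 and 5.52 CPM with Atrx shRNA and 4.89, 5.45 and 4.70 CPM with empty vector. No group overlapped another here. Smndc1 shRNA was lower than Atrx shRNA by -2.11 ± 0.47 on the log2 scale (edgeR adjusted p = 0.0452; 0.00247 with trended offsets), and lower than empty vector by -1.77 ± 0.47 (adjusted p = 0.0951, not called; 0.00926 with trended offsets, lost without Smndc1 shRNA replicate 1, 0.0955, or 3, 0.0815, or empty vector replicate 1, 0.0667, or 2, 0.107). The call between the knockdowns was lost without Smndc1 shRNA replicate 1 (adjusted p = 0.325) or 3 (0.109), Atrx shRNA replicate 1 (0.28) or 2 (0.314), or empty vector replicate 1 (0.0736) or 2 (0.0707), and with trended offsets without Smndc1 shRNA replicate 1 (0.057) or Atrx shRNA replicate 1 (0.0823). Atrx shRNA differed from empty vector by 0.34 ± 0.41 (adjusted p = 0.978).

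Other Lgr4 regions did not pass. At +67.5 kb the levels were 4.56, 3.05 and 2.88 CPM with Smndc1 shRNA, 2.73, 4.39 and 4.22 CPM with Atrx shRNA and 8.15, 7.26 and 4.38 CPM with empty vector, and the difference of Smndc1 shRNA from empty vector was -0.91 ± 0.41 (edgeR adjusted p = 0.535). Each knockdown group overlapped the empty vector group there. At -7.7 kb, outside the gene, they were 1.76, 1.86 and 1.35 CPM, 5.14, 1.34 and 3.08 CPM, and 0.889, 0.778 and 0.939 CPM in that order, where each empty vector library had 6 counts. The Atrx shRNA difference there, 1.86 ± 0.76, was not called (adjusted p = 0.78). Summed over all regions, Lgr4 levels overlapped between the groups: 92.8, 105.4 and 77.7 CPM with Smndc1 shRNA, 102.0, 91.3 and 79.9 CPM with Atrx shRNA and 113.6, 104.3 and 79.5 CPM with empty vector, with log2 differences from empty vector of -0.08 ± 0.10 and -0.10 ± 0.10 (adjusted p = 0.87 and 0.84).

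**Figure D5:**
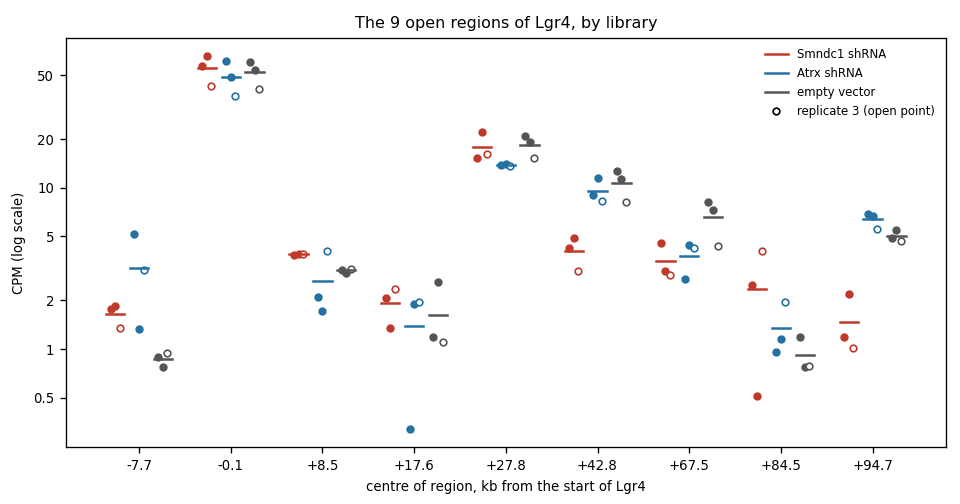
CPM per library (log axis) at the 9 regions of Lgr4 by distance of the region's centre from the gene start in kb, with a line at the mean of each group of 3. The start region at -0.1 kb shows all groups between 37.2 and 65.4 CPM, and at +42.8 and +94.7 kb the 3 Smndc1 shRNA points lie below the other 6.

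Lgr5, a paralogue of Lgr4 known as a marker of Wnt-driven stem cells in the gut, had 1 strong region at its higher-coordinate end, chr10:115587131-115587779. It held 54.9, 63.9 and 50.6 CPM with Smndc1 shRNA, 58.9, 52.3 and 35.5 CPM with Atrx shRNA and 61.6, 51.8 and 30.7 CPM with empty vector. Replicate 3 was the lowest library of each group, and the groups overlapped, with differences from empty vector of 0.23 ± 0.26 and 0.03 ± 0.26 (edgeR adjusted p = 0.89 and 0.999). The other Lgr5 region, at +105.3 kb, was weak, between 0.778 and 4.71 CPM in the 9 libraries.

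Lrp5, a co-receptor that pairs with Frizzled proteins, held 10 regions, of which the strongest, chr19:3575694-3576372, lies inside the body of the neighbouring gene Ppp6r3. That region held 54.3, 56.9 and 41.3 CPM with Smndc1 shRNA, 56.7, 40.1 and 43.2 CPM with Atrx shRNA and 51.5, 64.8 and 48.2 CPM with empty vector. Summed over its regions Lrp5 held 139.4, 149.6 and 139.6 CPM with Smndc1 shRNA, 131.4, 116.4 and 120.9 CPM with Atrx shRNA and 143.7, 150.2 and 137.8 CPM with empty vector. The Atrx shRNA libraries were the 3 lowest, but the differences were small and not called: Atrx shRNA minus empty vector was -0.21 ± 0.09 (edgeR adjusted p = 0.638) and Smndc1 shRNA minus Atrx shRNA was 0.22 ± 0.10 (adjusted p = 0.861).

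Znrf3 and Rnf43, the membrane ubiquitin ligases, held 21 and 10 regions, none of which was called. At least 21 regions, the number at Znrf3, were held by 192 (1.13%) of the 17021 coding genes that hold any. Its summed level was 209.9, 204.7 and 182.7 CPM with Smndc1 shRNA, 182.6, 194.0 and 213.0 CPM with Atrx shRNA and 187.8, 202.6 and 208.2 CPM with empty vector, and the fitted differences from empty vector were 0.01 ± 0.13 and 0.00 ± 0.13 (edgeR adjusted p = 0.985 and 0.998). Its strongest region, chr11:5444566-5445180 at the higher-coordinate end, held 57.4, 59.0 and 34.3 CPM, 55.9, 49.6 and 39.4 CPM, and 54.6, 69.5 and 42.7 CPM in that order. All groups overlapped at both scales.

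The Znrf3 regions with the smallest p did not pass either. At +128.0 kb the levels were 6.62, 4.41 and 10.8 CPM with Smndc1 shRNA, 2.41, 5.35 and 7.47 CPM with Atrx shRNA and 3.26, 3.5 and 5.79 CPM with empty vector, and the Smndc1 shRNA difference from empty vector was 0.80 ± 0.38 (edgeR adjusted p = 0.58). At +146.6 kb they were 6.47, 7.63 and 7.78 CPM, 8.51, 8.78 and 14.8 CPM, and 7.55, 8.04 and 5.01 CPM in that order, and the Atrx shRNA difference was 0.63 ± 0.28 (adjusted p = 0.819). The 3 Atrx shRNA libraries were the highest of the 9 at +146.6 kb.

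Rnf43 held 141.9, 160.2 and 128.2 CPM with Smndc1 shRNA, 151.4, 142.8 and 142.0 CPM with Atrx shRNA and 140.0, 159.1 and 150.0 CPM with empty vector over its 10 regions. The ranges lay inside each other, and differences from empty vector were -0.05 ± 0.10 and -0.02 ± 0.10 (edgeR adjusted p = 0.936 and 0.973). Its strongest region, chr11:87737160-87737856, lies in the body of Supt4a beyond the end of Rnf43 and held 35.1, 51.7 and 24.5 CPM with Smndc1 shRNA, 55.7, 48.3 and 46.3 CPM with Atrx shRNA and 44.3, 56.5 and 43.7 CPM with empty vector. A region of similar strength, at +26.6 kb inside Rnf43, held 47.2, 63.7 and 42.5 CPM, 46.9, 38.8 and 30.5 CPM, and 44.6, 48.6 and 39.4 CPM in that order.

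Ctnnb1, which encodes β-catenin (chr9:120933400-120960507), was open at its start and just inside it. The start region, chr9:120932986-120933772, spans the Ctnnb1 sequence printed above and held 19.9, 29.5 and 12.5 CPM with Smndc1 shRNA, 30.8, 29.8 and 20 CPM with Atrx shRNA and 22.7, 25.3 and 14.9 CPM with empty vector. Replicate 3 was again the lowest in each group, and the groups overlapped. The next region, chr9:120933992-120934780 (+1.0 kb), held 10.1, 13.0 and 12.2 CPM with Smndc1 shRNA, 13.2, 14.9 and 15.1 CPM with Atrx shRNA and 11.7, 8.04 and 8.92 CPM with empty vector. The 3 Atrx shRNA libraries were the highest there, but the difference from empty vector, 0.59 ± 0.24, was not called (edgeR adjusted p = 0.779).

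Summed over its 4 regions Ctnnb1 held 40.4, 49.8 and 30.8 CPM with Smndc1 shRNA, 50.9, 53.6 and 42.0 CPM with Atrx shRNA and 38.5, 38.1 and 29.9 CPM with empty vector. Every Atrx shRNA library exceeded every empty vector library. The difference was 0.48 ± 0.14, with an unadjusted p of 0.00318 and an adjusted p of 0.61 over all genes (edgeR). Axin2 (chr11:108917828-108950783), a feedback inhibitor of the pathway, held 0 regions within 10 kb, a state it shared with 4606 of 21627 coding genes (21.3%); the table used here holds none within 50 kb of it either.

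Tcf7l2 and Lef1, the DNA-binding factors, were the least accessible genes that held any region. Tcf7l2 spans chr19:55741797-55933659 and held 5 regions, all 501 bp wide, the most common width (53.4% of all regions and 55.4% of the 65). In empty vector cells they averaged 0.843 to 2.67 CPM each, which put them between the 0.403 and 22.2 percentiles of all regions. The strongest by the mean over all 9 libraries, at +88.8 kb (chr19:55830310-55830810), held 1.32, 2.2 and 3.38 CPM with Smndc1 shRNA, 1.77, 2.48 and 6.49 CPM with Atrx shRNA and 2.37, 1.69 and 3.13 CPM with empty vector. That rank was not the same in every group. With Smndc1 shRNA this region (mean 2.3 CPM) was the weakest of the 5. The regions at +9.3 kb (3.72 CPM), +38.8 kb (3.5 CPM), +180.0 kb (3.07 CPM) and +198.9 kb (2.82 CPM) exceeded it. With empty vector +9.3 kb did (2.67 against 2.4 CPM).

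The summed level of Tcf7l2 was 14.4, 9.32 and 22.5 CPM with Smndc1 shRNA, 6.91, 10.1 and 22.4 CPM with Atrx shRNA and 6.66, 6.48 and 16.6 CPM with empty vector. Replicate 3 was the highest library of every group, at 16.6 to 22.5 CPM against 6.48 to 14.4 CPM in the other 6. With trended offsets those ranges were 12.9 to 17.3 and 7.65 to 12.4 CPM. Neither knockdown was called: the differences from empty vector were 0.66 ± 0.53 for Smndc1 shRNA and 0.44 ± 0.53 for Atrx shRNA (edgeR adjusted p = 0.791 and 0.873). Without Atrx shRNA replicate 3 alone the second difference was -0.32. Without replicate 3 of every group it was 0.40 ± 0.39, so its direction is not settled. The part of the replicate 3 libraries' flatter signal in these values was not tested.

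At +198.9 kb, outside the Tcf7l2 body, the region held 3.38, 0.847 and 4.23 CPM with Smndc1 shRNA, 1.28, 1.91 and 5.03 CPM with Atrx shRNA and 0.889, 0.389 and 1.25 CPM with empty vector, the last from 6, 3 and 8 counts. Differences from the same 3 empty vector libraries were 1.74 ± 0.75 and 1.70 ± 0.75 and were not called (edgeR adjusted p = 0.507 and 0.817).

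Lef1, a factor of the same family, held 2 regions. The stronger, chr3:131214674-131215520 (+104.8 kb), held 2.21, 3.39 and 8.12 CPM with Smndc1 shRNA, 5.94, 4.58 and 7.47 CPM with Atrx shRNA and 5.33, 2.85 and 8.30 CPM with empty vector. Its replicate 3 libraries were the highest in each group. Summed levels were 5.00, 4.75 and 11.5 CPM, 7.55, 6.30 and 10.6 CPM, and 9.18, 4.80 and 10 CPM in that order, and the differences from empty vector were -0.13 ± 0.47 and 0.05 ± 0.47 (edgeR adjusted p = 0.958 and 0.988). Leaving out 1 library moved these between -0.77 (without Smndc1 shRNA replicate 3) and 0.17 (without empty vector replicate 3) and between -0.29 (without Atrx shRNA replicate 3) and 0.35 (without empty vector replicate 3), so neither has a settled direction.

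The genes whose summed log2 level followed that of Tcf7l2 most closely over the 9 libraries, among 10591 ranked (those with 3 or more regions), were Gpr39, Ikzf1 and Lipg, with root mean square differences of 0.198, 0.213 and 0.215 after centring. Of the Wnt genes that were ranked, all lay farther off, at 0.609 for Znrf3, 0.679 for Lrp5, 0.689 for Rnf43, 0.802 for Ctnnb1 and 0.809 for Lgr4. Lgr5, Rspo3 and Lef1, with 2 regions each, were not ranked. All 9 points share the libraries' depth and signal shape.

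Counting regions whose 3 libraries all lay on one side of the other group's 3 gives a view without the edgeR test. It still rests on levels scaled with TMM factors. For Smndc1 shRNA against empty vector 5 of the 65 regions were higher and 3 lower, beside 5.76% and 7.02% of all regions. Of those 8, the higher ones were at Lgr4 (-7.7 and +8.5 kb), Lrp5 (+57.1 and +65.0 kb) and Rspo3 (+80.7 kb), and the lower ones at Lgr4 (+42.8 and +94.7 kb) and Znrf3 (+139.5 kb). With Atrx shRNA 6 regions lay above empty vector and 3 below it, beside 4.83% and 5.65%. The higher ones were at Ctnnb1 (-6.2 and +1.0 kb), Lgr4 (-7.7 and +94.7 kb), Tcf7l2 (+198.9 kb) and Znrf3 (+146.6 kb), and the lower ones at Lgr4 (+27.8 kb), Lrp5 (+39.1 kb) and Rspo3 (+82.8 kb). With Smndc1 shRNA 7 lay above Atrx shRNA and 4 below it, beside 5.03% and 5.15%. In that last comparison the higher regions were at Lrp5 (-3.3, +65.0 and +108.0 kb), Rspo3 (+80.7 and +82.8 kb), Lgr4 (+27.8 kb) and Tcf7l2 (+9.3 kb), and the lower ones at Lgr4 (+42.8 and +94.7 kb), Ctnnb1 (+1.0 kb) and Znrf3 (+146.6 kb).

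The rest of the pathway was read from 6 lists of 108 further genes: ligands and their secretion, receptors, inhibitors, the cytoplasmic relay, nuclear partners and common targets. Of these, 101 genes held 417 tested regions. With TMM factors 0 of the 417 were called in any comparison (edgeR). With trended offsets 5 were higher and 2 lower for Smndc1 shRNA against empty vector, 0 higher and 1 lower for Atrx shRNA against empty vector, and 1 higher and 1 lower for Smndc1 shRNA against Atrx shRNA. These are 1.68%, 0.24% and 0.48% of the 417, near the 1.13%, 0.269% and 0.592% of all regions called with the same offsets. By list, the 77 ligand regions and the 54 inhibitor regions gave 0 calls, the 64 receptor regions 1, the 104 relay regions 2, the 69 nuclear partner regions 1 and the 49 target regions 3 for Smndc1 shRNA against empty vector.

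The called receptor region was at Fzd1, a Frizzled receptor, with 12.8, 15.9 and 22.0 CPM with Smndc1 shRNA and 11.1, 10.9 and 9.08 CPM with empty vector (0.79 ± 0.23, edgeR with trended offsets, adjusted p = 0.0489). Csnk1d, a casein kinase gene, was lower at 23.1, 18.3 and 17.6 CPM with Smndc1 shRNA against 34.8, 32.0 and 31.2 CPM with empty vector (-0.66 ± 0.16, adjusted p = 0.0121). Usp7, a deubiquitinase gene, was higher at 27.9, 33.6 and 25.2 CPM with Smndc1 shRNA against 22.1, 18.4 and 15.8 CPM with empty vector (0.69 ± 0.17, adjusted p = 0.0136). Ctnnbip1, which encodes an inhibitor of β-catenin binding to TCF factors, was lower at 30.6, 42.9 and 24.2 CPM with Smndc1 shRNA against 45.6, 58.6 and 43.8 CPM with empty vector (-0.57 ± 0.14, adjusted p = 0.0104). In each of these 4 regions the Smndc1 shRNA libraries lay on one side of the empty vector libraries. With Atrx shRNA the levels were 17.2, 14.5 and 13.5 CPM at Fzd1 and 30.5, 27.9 and 22.6 CPM at Usp7. These also lay above every empty vector library. At Ctnnbip1 the Atrx shRNA libraries, at 49.9, 33.6 and 30.2 CPM, overlapped empty vector. None of these Atrx shRNA differences from empty vector was called. The Csnk1d region, with 38.7, 27.7 and 27.3 CPM with Atrx shRNA, was also lower with Smndc1 shRNA than with Atrx shRNA (-0.63 ± 0.17, adjusted p = 0.0371).

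Whether these regions passed depended on single libraries, while the differences kept their direction with any library left out (edgeR with trended offsets). They then ran from 0.53 to 0.96 at Fzd1, from -0.80 to -0.53 against empty vector and from -0.76 to -0.49 against Atrx shRNA at Csnk1d, from 0.63 to 0.75 at Usp7 and from -0.69 to -0.50 at Ctnnbip1. The call at Fzd1 was kept only without Smndc1 shRNA replicate 1 or Atrx shRNA replicate 3 (adjusted p = 0.0373 to 0.366 over the 9 fits). Csnk1d against empty vector was lost without Smndc1 shRNA replicate 2 (0.145) or empty vector replicate 1 (0.0738) or 3 (0.0642), and against Atrx shRNA it was kept only without Smndc1 shRNA replicate 1 or 3 or empty vector replicate 3. Usp7 was lost without Smndc1 shRNA replicate 2 (0.0656) or empty vector replicate 1 (0.0529) or 2 (0.148). Ctnnbip1 was lost without Smndc1 shRNA replicate 1 (0.0834) or empty vector replicate 2 (0.182).

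Among common targets, 3 regions of Prox1, a homeobox gene, were higher with Smndc1 shRNA than with empty vector, by 0.82 ± 0.15, 0.45 ± 0.12 and 0.43 ± 0.12 (edgeR with trended offsets, adjusted p = 0.000223, 0.027 and 0.0406). The strongest change was at chr1:190169001-190169680, with 39.0, 45.4 and 36.2 CPM with Smndc1 shRNA against 32.1, 23.5 and 16.1 CPM with empty vector. Atrx shRNA libraries held 35.2, 31.7 and 24.7 CPM there. The second region held 64.9, 87.5 and 50.2 CPM with Smndc1 shRNA against 63.7, 48.2 and 39.1 CPM with empty vector. The third held 65.4, 86.6 and 46.0 CPM against 61.5, 49.7 and 38.2 CPM. With Atrx shRNA they held 79.0, 61.5 and 54.5 CPM and 75.5, 69.3 and 49.2 CPM. Only at the first region did the Smndc1 shRNA libraries all exceed the empty vector ones. No Atrx shRNA difference from empty vector was called at Prox1. Gcg, the proglucagon gene, held 34.9, 48.5 and 34.0 CPM with Smndc1 shRNA, 17.8, 20.2 and 20.6 CPM with Atrx shRNA and 46.4, 35.3 and 24.0 CPM with empty vector at chr2:62473246-62474358. The Atrx shRNA libraries were the 3 lowest, by -0.78 ± 0.16 against empty vector (edgeR with trended offsets, adjusted p = 0.00359), and Smndc1 shRNA exceeded Atrx shRNA by 1.0 ± 0.16 (adjusted p = 4.94e-06). None of the Prox1 and Gcg regions was called with TMM factors. With trended offsets and 1 library left out, the first Prox1 region and the Gcg difference between the knockdowns were called in 9 of 9 fits. The Gcg difference of Atrx shRNA from empty vector was lost without Atrx shRNA replicate 1 (adjusted p = 0.199) or 2 (0.0661) or empty vector replicate 1 (0.259), with differences of -0.96 to -0.60 over the 9 fits. The second Prox1 region was lost without Smndc1 shRNA replicate 1 (0.0728) or 2 (0.165) or empty vector replicate 2 (0.352) or 3 (0.0645), and the third was kept only without Smndc1 shRNA replicate 3 or Atrx shRNA replicate 1 or 3; they ran from 0.35 to 0.57 and from 0.35 to 0.53.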

How the data were processed

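The authors deposited a table of raw counts for 80827 consensus regions in 9 ATAC-seq libraries and a list of the regions' positions on mm10. Per the labels' protocols, libraries were sequenced as 75 bp paired-end reads. The submitters' processing notes name MACS2 2.2.7.1, Bowtie2 2.4.4, bedtools 2.27.1, SAMtools 2.8.0 and deepTools 3.5.1. Neither the part each tool played nor the merging of peaks into regions is given in the sources used here, nor the unit that was counted (cut sites, fragments or reads). The counts carry no shift or scaling that a header records.

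Gene bounds came from a RefSeq table of the same build (GRCm38.p6), which matched all 10 genes but gives neither strand nor exons, so positions are distances from the lower-coordinate gene end (the 5′ end for the 6 genes with a listed start) and exon or intron is not given. Counts were tested with edgeR 4.0.16 in R 4.3.3: TMM factors, filterByExpr with a minimum count of 10, robust quasi-likelihood F test, all 9 libraries in 1 fit, Benjamini-Hochberg adjustment over 80345 regions (482 fell below the filter; all 65 regions of these genes passed it). A region was called at an adjusted p under 0.05. Trended offsets are loess curves (span 0.3) of each library against the mean level. Gene tests used counts summed per coding gene, and gene levels are sums of region CPM. DESeq2 1.42.0, other filters, the replicate number as a block, 6-library fits and left-out libraries were the alternatives. The fits were tried on simulated counts drawn with the same spread for every region. Simulated libraries differed only in total counts and in set changes. They lacked the flatter signal of replicate 3, so they cannot tell which scaling suits these data. The p-values set each difference between groups against the spread between libraries within groups, which the main fits estimate from all 9 libraries together.

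Regions named are each gene's strongest, those that hold a listed start, every called one and the 5 with the smallest p against empty vector; Rnf43 +26.6 kb, Lgr5 +105.3 kb and those listed because groups do not overlap were chosen after their values were seen. The genes and lists were chosen with earlier results of these data known. Some genes of the alpha cell list are not reported here.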

Additional observations from a re-analysis of the deposited data

Results flagged for a closer look

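The Lgr4 region at +94.7 kb was picked out because the effects of both knockdowns, each taken against the same empty vector libraries, differed there by the test of the difference itself: the Smndc1 shRNA effect minus the Atrx shRNA effect was -2.11 on the log2 scale (edgeR adjusted p = 0.0452). Smndc1 shRNA libraries held 6 to 13 counts and Atrx shRNA libraries 34 to 43 counts.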

How the results depend on the processing

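Counts of called regions among the 65 depended on how libraries were scaled and on single libraries. For Smndc1 shRNA against empty vector, where 1 was called, trended offsets gave 2, DESeq2 0, and leaving out 1 library 0 to 2 with either scaling. For Smndc1 shRNA against Atrx shRNA, where 1 was called, trended offsets gave 3, DESeq2 0 (it gave no adjusted p for Lgr4 +94.7 kb), the 6 libraries of these groups alone 0, and leaving out 1 library 0 to 3 with TMM factors and 0 to 4 with trended offsets. With only regions of mean count at least 50 the 1 called region there was Rspo3 +82.8 kb (adjusted p = 0.0261). For Atrx shRNA against empty vector every one of these settings gave 0. The median over the 65 regions ran from 0.06 to 0.18 for Smndc1 shRNA and from -0.17 to 0.07 for Atrx shRNA when 1 library was left out with TMM factors, and from 0.05 to 0.13 and -0.13 to 0.02 with trended offsets. The trended fits without a library were chosen after seeing the data; the cause of these changes was not tested. Over all regions, the number called in the 3 comparisons was 125, 0 and 61 with TMM factors, 910, 216 and 476 with trended offsets and 26, 0 and 18 with DESeq2. With 1 library left out, that number was 1 to 609, 0 to 22 and 1 to 107 with TMM factors. With trended offsets it was then 240 to 1216, 21 to 454 and 138 to 517. Between the knockdowns, the 6 libraries alone gave 66, and the filter of mean count at least 50 gave 134.

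Deviations of same-numbered libraries from their group means correlated at 0.343, 0.386 and 0.441 for the replicate 3 pairs, which share the flatter signal, and at -0.024 to 0.275 for the other 6 pairs. Only 5 of the 9 libraries correlated best with one of their own number, so the numbers as a whole were not taken to pair the samples. With the replicate number as a block, 2, 0 and 3 of the 65 regions were called in the 3 comparisons. Over all regions the block gave 1268, 231 and 614. With trended offsets and the block the counts were 3, 0 and 5 of the 65, beside 2122, 792 and 1137 of all regions. On summed counts, where 0 genes were called, the block gave 0, 1 (Ctnnb1, adjusted p = 0.0274) and 1 (Rspo3, 0.00543), and trended offsets with the block gave 1 (Rspo3, 0.0428), 1 (Ctnnb1, 0.0165) and 1 (Rspo3, 0.00901). Over all coding genes the block gave 325, 357 and 88 calls, against 0, 0 and 2 without it, and 494, 465 and 132 with trended offsets. No library left out gave a call on summed counts. Over the 50 single differences named, the alternatives kept direction and side of the threshold 1150 times, gained a call 124 times and lost one 16 times, and 70 reversals of sign all fell on uncalled gene sums. Of these, Rnf43 for Smndc1 shRNA against empty vector became 0.05 without replicate 3 of every group and 0.13 with the gene body only. For Smndc1 shRNA against Atrx shRNA Rnf43 became 0.01 with trended offsets, 0.02 with the block added, 0.05 without replicate 3 of every group and 0.21 with the gene body only. For Atrx shRNA against empty vector Lgr5 became -0.01 without replicate 3 of every group, and Znrf3 -0.04 with trended offsets with or without the block, 0.00 with the replicate block and -0.03 without replicate 3 of every group. Over the 18 fits without 1 library (9 per scaling), differences of gene sums that changed sign ranged as follows. With Smndc1 shRNA against empty vector, Znrf3 ran from -0.09 to 0.15, Rnf43 from -0.14 to 0.07, Lef1 from -0.77 to 0.17 and Lrp5 from -0.06 to 0.10. With Atrx shRNA against empty vector, Lgr5 ran from -0.09 to 0.25, Znrf3 from -0.22 to 0.13, Rnf43 from -0.15 to 0.06, Tcf7l2 from -0.32 to 1.16 and Lef1 from -0.29 to 0.35. Between the knockdowns, as Smndc1 shRNA minus Atrx shRNA, Lgr4 ran from -0.02 to 0.07, Znrf3 from -0.11 to 0.22, Rnf43 from -0.07 to 0.11, Tcf7l2 from -0.25 to 0.97 and Lef1 from -0.82 to 0.15. Low counts left wide errors: at Tcf7l2 +198.9 kb, with 3 to 8 counts in the empty vector libraries, the standard error of the log2 difference was 0.75.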
